A study of Mus musculus with 4 samples.

Results

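The 9 genes Slc7a5, Slc3a2, Slc1a5, Slc38a1, Slc38a2, Slc7a1, Slc7a6, Slc1a4 and Slc43a1 encode proteins that carry amino acids across the plasma membrane, and they were taken by name from the 49671 genes of the deposited tables. RNA was sequenced from spleen T cells purified on CD3 enrichment columns, in 4 libraries labelled as biological replicates 1 to 4. The donors were female F1 mus x cast hybrids whose C57BL/6 mothers carried a heterozygous Xist deletion and whose fathers were M. m. castaneous; the labels used here state no age. All 4 cultures received plate-bound anti-CD3 at 1 µg/ml, soluble anti-CD28 at 10 µg/ml and the IKKβ inhibitor IMD-0354 at 2.5 µM for 48 hours, in RPMI-1640 with 1% nonessential amino acids. Every library thus had both the stimulus and the inhibitor, so neither effect on a transporter can be read from these samples. What can be read is the level of each gene in each replicate, taken here as an animal, and the share of its reads from the Castaneus or the C57BL/6 allele. The Castaneus allele always came from the father and the C57BL/6 allele from the mother, so strain and parent of origin cannot be told apart.

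A T cell that has been triggered through its antigen receptor builds proteins and nucleotides quickly and takes up more amino acids from its surroundings. Large neutral amino acids such as leucine enter through an exchanger made of a heavy chain, CD98 (Slc3a2), which brings the complex to the cell surface, and a light chain that does the transport. The light chain LAT1 (Slc7a5) carries leucine and other large neutral amino acids, and y+LAT2 (Slc7a6) also exchanges cationic ones. Among the other members, ASCT2 (Slc1a5) and ASCT1 (Slc1a4) exchange small neutral amino acids, and glutamine is a substrate of ASCT2. SNAT1 (Slc38a1) and SNAT2 (Slc38a2) take up small neutral amino acids with sodium, SNAT2 being known to be raised when amino acids are short. CAT1 (Slc7a1) imports arginine and lysine, and LAT3 (Slc43a1) is a sodium-independent carrier of large neutral amino acids.

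Promoter sequence could be matched for 6 of the 9 genes (8 windows from 250 bases before to 50 bases after a transcription start, RefSeq, GRCm38.p6). Slc7a5, Slc1a5 and Slc38a1 had no window and were not searched for motifs. The windows of Slc3a2, Slc1a4 and Slc43a1 are shown, because Slc3a2 had the highest level and Slc43a1 the lowest, and because Slc1a4 and Slc43a1 hold the motif matches. They read 5′ to 3′ on the strand of the gene, and capitals mark a match to a searched motif. They lie at chr19:8713848-8714147 on the minus strand, chr11:20332664-20332963 on the minus strand and chr2:84840073-84840372 on the plus strand. The Slc3a2 and Slc43a1 windows lie inside the annotated genes, at starts downstream of the most distal one.
Slc3a2: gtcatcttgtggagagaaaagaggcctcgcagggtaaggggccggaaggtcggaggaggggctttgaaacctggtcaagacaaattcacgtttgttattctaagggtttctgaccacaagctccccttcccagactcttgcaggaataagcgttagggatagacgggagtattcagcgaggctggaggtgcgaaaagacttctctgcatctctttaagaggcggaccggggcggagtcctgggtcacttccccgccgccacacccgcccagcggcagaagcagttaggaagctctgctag
Slc1a4: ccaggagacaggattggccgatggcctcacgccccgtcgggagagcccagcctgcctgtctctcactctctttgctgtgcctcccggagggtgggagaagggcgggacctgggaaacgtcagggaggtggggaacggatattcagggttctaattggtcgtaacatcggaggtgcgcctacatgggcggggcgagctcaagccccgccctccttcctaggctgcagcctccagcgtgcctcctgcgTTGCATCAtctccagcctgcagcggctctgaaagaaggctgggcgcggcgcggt
Slc43a1: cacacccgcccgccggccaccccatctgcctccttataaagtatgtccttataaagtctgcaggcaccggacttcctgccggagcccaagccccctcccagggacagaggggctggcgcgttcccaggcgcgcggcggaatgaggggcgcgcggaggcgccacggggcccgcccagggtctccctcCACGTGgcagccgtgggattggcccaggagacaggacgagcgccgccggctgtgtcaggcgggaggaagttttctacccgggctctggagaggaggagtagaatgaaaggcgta

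Both strands were searched for the E-box CACGTG, bound by Myc among other factors, for TGATGNAA, the core of the CARE element bound by Atf4, and for GGGANTTCC, a form of the kappaB motif. The motifs and the search were chosen after other values of these data had been seen. CACGTG was found in the Slc43a1 window, 64 bases before the start, and in no other window of the 6 genes. Of 32817 mouse promoter windows of this length 7.15% hold it. TGATGNAA was found in Slc1a4, as TTGCATCA on the printed strand. That match begins 4 bases before the start and runs past it, and 3.97% of promoter windows hold the motif. GGGANTTCC was in none of the 8 windows, against 1.68% of all promoter windows. CG dinucleotides numbered 15 in the Slc3a2 window, 21 in Slc1a4, 26 in Slc43a1 and 41 in Slc38a2. The Slc7a6 windows held 41 and 42, and the Slc7a1 windows 27 and 7. The median of all promoter windows was 7 and the upper quartile 20. A letter match describes the sequence and does not show binding in these cells.

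The libraries held 30539711 to 34992012 reads assigned to an allele, and 49.5% to 49.7% of autosomal allelic reads came from Castaneus. Xist, whose heterozygous deletion the mothers carried, was read to 99.9% or more from Castaneus in every library. T cell identity was checked on 9 marker genes, 9 of which reached 1 RPKM, with a summed level of 456 to 499.97 RPKM per library. The activation markers Il2ra, Cd69, Cd44 and Tfrc also passed 1 RPKM, and Mki67, a proliferation marker, did not (mean 0.535 RPKM). B cell markers summed to 5.37 to 11.7 RPKM, and 3 of 6 passed 1 RPKM. Myeloid markers passed in 3 of 6 cases, none was at 0, and their sums were 61.3, 99.4, 46.0 and 37.1 RPKM in replicates 1 to 4. Most of each sum was Lyz2, at 44.7, 74.4, 27.2 and 18.8 RPKM. Cd68 ran otherwise, at 9.91, 16.8, 15.5 and 16.3 RPKM, while each other myeloid marker was higher in replicates 1 and 2 than in 3 and 4. NK cell markers passed in 1 of 3 cases and red cell markers in 4 of 5. One noncoding gene, Gm26917, took 14.3% to 23.4% of all RPKM of a library.

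The 9 transporters ranged from 170.4 RPKM (Slc3a2) to 0.131 RPKM (Slc43a1). RPKM, the authors' read count scaled by gene length and by a library total, is a per-length unit, so levels of different genes can be set side by side. Together the 9 summed to 498, 548, 531 and 512 RPKM in replicates 1 to 4 (522 ± 21.6, SD, n = 4), which is 0.153% ± 0.0113 of all RPKM. Slc3a2 and Slc38a2 made up 62.6% ± 2.64 of that sum. Of the 9, 8 exceeded 10 RPKM, whereas 3867 of 9375 protein coding genes with at least 1 RPKM did. The median of the 9 was 37.5 RPKM, beside 7.84 RPKM over those protein coding genes. In bulk RNA a level set by fewer cells of a type and one set by less RNA per cell cannot be told apart.

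**Figure D1:**
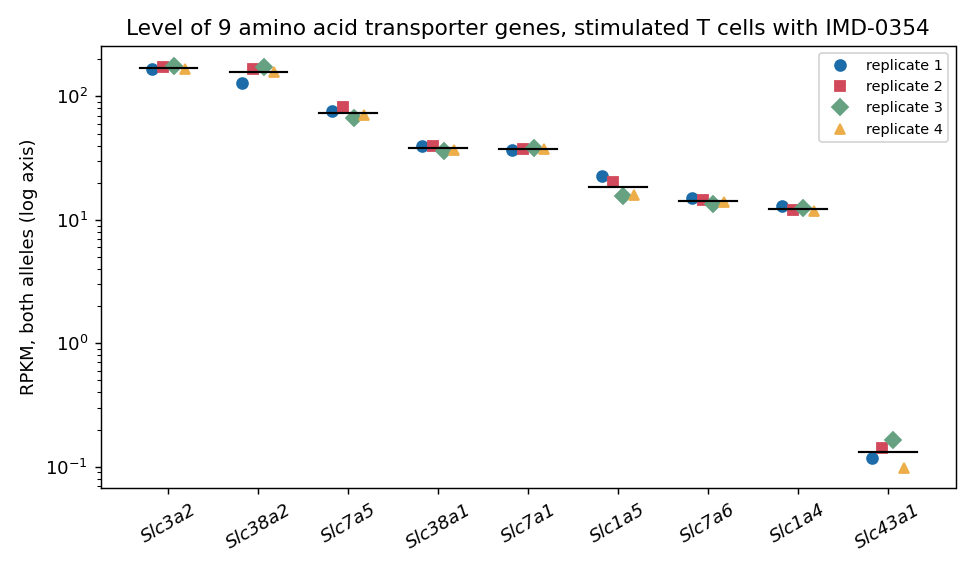
Level of each of the 9 transporter genes in RPKM (both alleles, log axis), 1 point per replicate, with the mean as a line. Slc3a2 and Slc38a2 lie highest, at means of 170.4 and 156.9 RPKM, and Slc43a1 lies at 0.131 RPKM.

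Among the parts of the leucine exchanger, the heavy chain gene Slc3a2 (ENSMUSG00000010095, chromosome 19, 8706882 to 8723369, minus strand, mm10) had 166.7, 173.1, 176.4 and 165.6 RPKM in replicates 1 to 4. The 4 animals differed little, with a mean of 170.4 ± 5.14 RPKM (SD, n = 4). It ranked 107 among protein coding genes. Its coefficient of variation of 3.02% was below that of all but 3.25% of protein coding genes with at least 1 RPKM, whose median was 10.1%. It was 4.30% with RPKM divided by median-ratio size factors and 6.44% with RPKM rescaled to a common sum. The light chain gene Slc7a5 (ENSMUSG00000040010, chromosome 8, 121881150 to 121907694, minus strand) had 76.4, 82.4, 66.6 and 71.0 RPKM, a mean of 74.1 ± 6.82 RPKM. Replicates 1 and 2 were above replicates 3 and 4, and the myeloid marker sums given above, mostly Lyz2, were also higher in replicates 1 and 2. Their part in the Slc7a5 level was not tested.

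The other SLC7 light chain of the 9, Slc7a6 (ENSMUSG00000031904, chromosome 8, 106168857 to 106198706, plus strand), had 14.9, 14.5, 13.5 and 14.0 RPKM (14.2 ± 0.628, SD, n = 4). Slc7a5 was higher than Slc7a6 in each of the 4 animals, by 5.12, 5.67, 4.94 and 5.08 times. The mean log2 ratio was 2.38 ± 0.09 (SD, n = 4, exact two-sided sign-flip permutation p = 0.125, the smallest that 4 animals allow). Slc3a2 was set against all 6 light chains known to join it (Slc7a5, Slc7a6, Slc7a7, Slc7a8, Slc7a10 and Slc7a11), which summed to 100.1, 110.7, 86.8 and 89.6 RPKM. Of that sum 76.7% ± 2.02 was Slc7a5. The heavy chain transcript exceeded the summed light chain transcripts 1.67, 1.56, 2.03 and 1.85 times, a mean log2 ratio of 0.82 ± 0.17 (exact sign-flip permutation p = 0.125, n = 4).

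The system A genes lie 44.5 kb apart on chromosome 15. Slc38a2 (ENSMUSG00000022462, 96687392 to 96699730, minus strand) had 128.9 RPKM in replicate 1 and 167.5, 171.9 and 159.2 RPKM in replicates 2 to 4, a mean of 156.9 ± 19.4 RPKM. The lowest value was that of replicate 1, and 64.0% of protein coding genes varied less between the animals. Slc38a1 (ENSMUSG00000023169, 96571418 to 96642913, minus strand) had 39.4, 40.0, 35.9 and 36.8 RPKM, a mean of 38.04 ± 1.97 RPKM. Slc38a2 exceeded Slc38a1 3.27, 4.19, 4.78 and 4.32 times, least in replicate 1, with a mean log2 ratio of 2.04 ± 0.23 (exact two-sided sign-flip permutation p = 0.125, n = 4).

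The SLC1 exchanger Slc1a5 (ENSMUSG00000001918, chromosome 7, 16781340 to 16798274, plus strand) had 22.6, 20.4, 15.6 and 15.9 RPKM (18.6 ± 3.40, SD, n = 4). Replicates 1 and 2 again lay above replicates 3 and 4, and 84.0% of protein coding genes varied less. B cell marker sums had the same order over the animals, at 11.7, 7.52, 5.37 and 5.81 RPKM (3 of 6 markers above 1 RPKM, none at 0), and myeloid sums, mostly Lyz2, were also higher in replicates 1 and 2. Their part in the Slc1a5 level and allele share was not tested. Slc1a4 (ENSMUSG00000020142, chromosome 11, 20302180 to 20332713, minus strand) had 13.0, 12.1, 12.4 and 11.8 RPKM, a mean of 12.3 ± 0.486 RPKM. The ranges of these genes did not overlap, and Slc1a5 was higher by 1.74, 1.68, 1.26 and 1.35 times (mean log2 ratio 0.58 ± 0.23, exact two-sided sign-flip permutation p = 0.125, n = 4). Adjusted over the 4 ratios compared, each p remained 0.125. Each ratio was above 1 in 4 of 4 animals.

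The cationic amino acid transporter gene Slc7a1 (ENSMUSG00000041313, chromosome 5, 148327410 to 148399904, minus strand) had the lowest coefficient of variation of the 9, at 36.5, 37.8, 38.2 and 37.3 RPKM (37.5 ± 0.724, SD, n = 4). That coefficient was 1.93%, and 1.06% of protein coding genes with at least 1 RPKM varied less. With median-ratio size factors it was 3.23% and with RPKM rescaled to a common sum 4.96%, the lowest of the 9 in each case. Slc43a1 (ENSMUSG00000027075, chromosome 2, 84838850 to 84863594, plus strand) had the lowest level of the 9. It had 0.118, 0.143, 0.163 and 0.0978 RPKM in replicates 1 to 4, a mean of 0.131 ± 0.0287 RPKM. Slc43a1 ranked 11645 among protein coding genes, and the median over all 49671 genes was 0 RPKM. In the order of levels, Slc3a2 exceeded Slc38a2 in 4 of 4 animals, although the ranges over animals overlapped. Slc38a1 and Slc7a1 did not differ beyond their spread, since Slc38a1 was higher in 2 of 4 animals. Every other neighbour in the order (Slc38a2 over Slc7a5, Slc7a5 over Slc38a1, Slc7a1 over Slc1a5, Slc1a5 over Slc7a6, Slc7a6 over Slc1a4 and Slc1a4 over Slc43a1) was higher in 4 of 4 animals without overlap. The narrowest of these gaps was between the lowest Slc7a6 value, 13.5 RPKM, and the highest Slc1a4 value, 13.0 RPKM.

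The genes with the most similar levels over the 4 replicates were found by the root mean square difference of log2 RPKM, among 9374 other protein coding genes with at least 1 RPKM. For Slc7a5 they were Arhgdib (0.06), Tmbim6 (0.09) and Cotl1 (0.09). Hspa9 was nearest to Slc3a2 (0.05), Psmb5 to Slc1a5 (0.06) and Rsrp1 to Slc38a2 (0.08). With 4 replicates this likeness is mainly one of level.

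Slc7a5 was the 1 transporter of the 9 called with more reads assigned to the Castaneus allele, and Slc1a5, Slc3a2 and Slc38a2 had more assigned to the C57BL/6 allele. Slc1a5 was the most unequal, with a fitted ratio of C57BL/6 to Castaneus of 1.60, while the fitted ratio of Castaneus to C57BL/6 was 1.25 for Slc7a5. These ratios are scaled by the autosomal read total of each allele. The sources used here do not say how reads were assigned, and whether reads of either allele map equally well at these genes was not tested. Slc7a1, Slc38a1, Slc1a4 and Slc7a6 did not pass the test, and their mean shares lay between 49.2% and 50.01% Castaneus. Slc43a1 had too few reads to be tested. The test was edgeR's quasi-likelihood test of Castaneus over C57BL/6 with the animal as a block, over 10268 autosomal genes at an FDR of 5%. It called 28.1% of those genes, 12.4% higher from Castaneus and 15.6% higher from C57BL/6. Of the 8 transporters tested, 1 (12.5%) was higher from Castaneus and 3 (37.5%) from C57BL/6. With 8 genes these shares are not a result about the group. The replicate labels do not say that mice came from separate litters, so the p-values measure the spread between these 4 libraries.

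**Figure D2:**
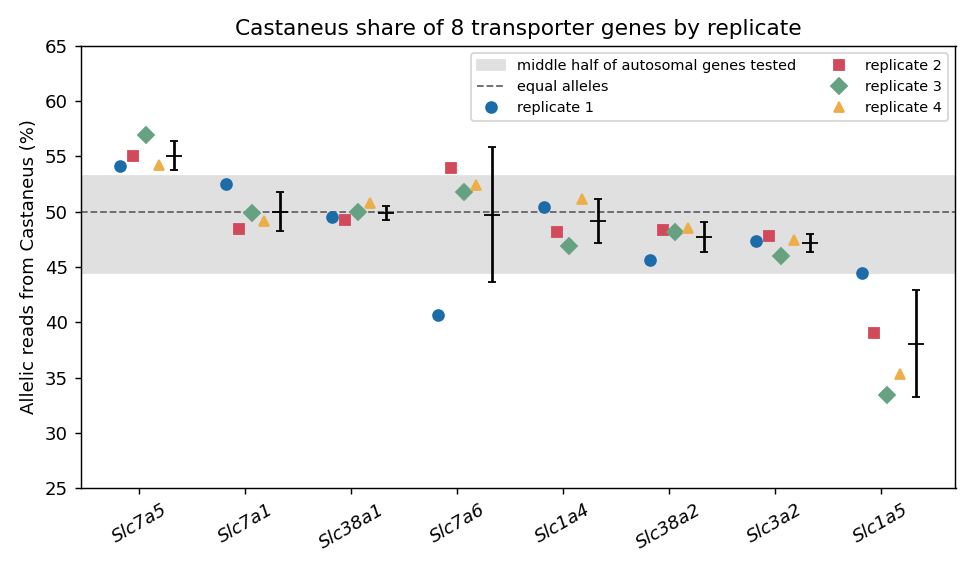
Castaneus share of allelic reads in percent for the 8 transporter genes with enough reads, 1 point per replicate, with mean and SD in black at the right of each gene. The grey band runs from 44.4% to 53.2%, the quartiles of the autosomal genes tested, and only Slc7a5 and Slc1a5 have means outside it.

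Slc7a5 read 54.1%, 55.1%, 56.9% and 54.2% from Castaneus in replicates 1 to 4. All 4 animals lay above 50%, with a mean of 55.1% ± 1.29 (SD, n = 4). The log2 ratio of Castaneus to C57BL/6 was 0.32 (SE 0.04, edgeR adjusted p = 0.00027). Of the autosomal genes tested 56.7% had a smaller imbalance, so a difference of this size was common. To split a level by allele, the RPKM of both alleles was multiplied by the allele's share of allelic reads. Such a split restates the share and is no second measure of the alleles. For Slc7a5 it gave 41.4, 45.4, 37.9 and 38.5 RPKM from Castaneus, against 35.0, 37.0, 28.7 and 32.5 RPKM from C57BL/6. The heavy chain went the other way. Slc3a2 read 47.4%, 47.8%, 46.0% and 47.4% from Castaneus, below 50% in 4 of 4 animals (log2 ratio -0.14, SE 0.03, edgeR adjusted p = 0.00348). Its level, split in the same way, was 80.4 ± 2.00 RPKM from Castaneus and 90.1 ± 3.68 RPKM from C57BL/6 (SD, n = 4), ranges that did not overlap. This call was lost when the animal was not kept as a block (adjusted p = 0.233).

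Slc1a5 read 44.4%, 39.05%, 33.4% and 35.4% from Castaneus, all below 50%, with a mean of 38.1% ± 4.83 (SD, n = 4). The log2 ratio was -0.68 (SE 0.10, edgeR adjusted p = 0.000454), and 79.9% of autosomal genes had a smaller imbalance. In reads, the Castaneus allele had 3141, 2125, 1645 and 1693, against 3931, 3317, 3276 and 3095 for C57BL/6. Its level split by allele was 10.0, 7.95, 5.23 and 5.64 RPKM from Castaneus, against 12.5, 12.4, 10.4 and 10.3 RPKM from C57BL/6. The Castaneus part varied 1.92 times between the highest and lowest animal (coefficient of variation 30.9%), the C57BL/6 part 1.22 times (10.7%). This split was computed after the shares had been seen, and the difference in spread between the alleles was not tested.

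**Figure D3:**
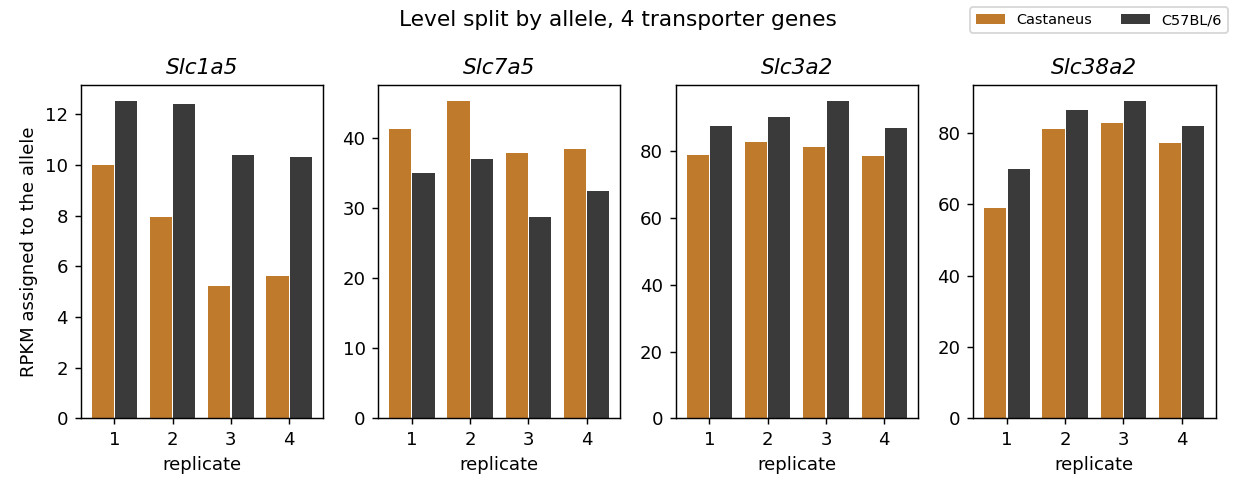
RPKM of both alleles multiplied by the allele's share of allelic reads, for Castaneus (left bar) and C57BL/6 (right bar). The 4 replicates of Slc1a5, Slc7a5, Slc3a2 and Slc38a2 are shown on linear axes that start at 0. The Castaneus bar is higher in 4 of 4 replicates of Slc7a5 and lower in 4 of 4 of the other genes, which restates the shares.

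Slc38a2 read 45.7%, 48.4%, 48.2% and 48.6% from Castaneus, all below 50%, and replicate 1 was the lowest. The log2 ratio was -0.11 (SE 0.03, edgeR adjusted p = 0.0379), and only 24.2% of the autosomal genes tested had a smaller imbalance. This call changed most with the processing. It was kept in 6 of 12 alternatives and lost with TMM scaling (log2 ratio -0.06, adjusted p = 0.246), with DESeq2 size factors (adjusted p = 0.199), without the animal block (adjusted p = 0.549) and without replicate 1 (adjusted p = 0.144), 3 (adjusted p = 0.0882) or 4 (adjusted p = 0.0623), all in edgeR. Its neighbour Slc38a1 read 49.5%, 49.3%, 50.02% and 50.8% from Castaneus and did not pass (log2 ratio 0.02, SE 0.04, edgeR adjusted p = 0.771).

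Slc7a1 read 52.5%, 48.5%, 49.9% and 49.2% from Castaneus (log2 ratio 0.02, SE 0.04, edgeR adjusted p = 0.702). Replicate 1 was the highest, and the 4 animals lay on both sides of 50%. Slc1a4 read 50.4%, 48.2%, 46.9% and 51.1% (log2 ratio -0.03, SE 0.08, edgeR adjusted p = 0.843). Slc7a6 read 40.7% in replicate 1 and 54.0%, 51.8% and 52.4% in replicates 2 to 4 (log2 ratio 0.01, SE 0.15, edgeR adjusted p = 0.98). Its standard error is the largest of the 8, and a moderate difference between the alleles was not detectable with this spread. Slc43a1 had 6 allelic reads in all, 4, 0, 0 and 2 from Castaneus and 0 from C57BL/6. Taken as independent reads, a count of 0 in 6 allows a C57BL/6 share of up to about 50%. This takes 3 counts as the 95% limit at 0, an approximation that is rough for 6 reads. Reads can share a molecule, so the true limit may be higher.

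How far the shares differ between animals depends on how many molecules the reads stand for. On reads, a chi-square test of allele by animal called 8 of 8 transporters, and it also called 88.5% of the 10268 autosomal genes. Reads were clumped, however, and the estimated reads per molecule were 11.4, 22.6, 13.0 and 7.19 in replicates 1 to 4. With 1 replicate left out the test on reads called 6 to 8 of the 8, losing Slc38a2 and Slc7a6 without replicate 1, Slc7a5 and Slc3a2 without replicate 3, and Slc38a1 without replicate 4. After division by the estimated reads per molecule the test called 0 of the 8 transporters and 0.662% of the autosomal genes. Slc1a5 (unadjusted p = 0.00129, adjusted p = 0.151) and Slc7a1 (unadjusted p = 0.0114, adjusted p = 0.529) were under 0.05 before adjustment. The 95% exact Clopper-Pearson interval of a single share was 0.821 to 0.904 percentage points wide on reads for Slc3a2 and 2.43 to 4.31 on molecules. For Slc7a6 it was 5.04 to 5.40 points on reads and 14.8 to 26.3 on molecules. These intervals cover counting error only. The SD of the share over animals was 4.83 points for Slc1a5 and 6.11 for Slc7a6, larger than in 79.4% and 90.1% of the 5802 autosomal genes with at least 1000 allelic reads. It was 0.659 points for Slc38a1 and 0.787 for Slc3a2, and 2.36% and 3.72% of those genes had a smaller SD.

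The nearest 2 tested genes on each side of a transporter were compared with it, a choice made after the transporters' shares had been seen. Of 28 distinct neighbours, 2 were called higher from Castaneus and 8 higher from C57BL/6, beside 12.4% and 15.6% of all autosomal genes tested. These are too few genes to read a share from. Around Slc1a5, the neighbours Ap2s1, Arhgap35 and Strn4 read 49.0%, 48.8% and 52.3% from Castaneus, and 0 of these 3 were called by edgeR (adjusted p = 0.190 to 0.881). Next to Slc7a5, BC048644 starts 0.139 kb away and read 66.2% ± 9.35 from Castaneus (edgeR adjusted p = 0.0615). Map1lc3b, 282 kb away on the other side, was called the opposite way, with 36.9% ± 2.44 from Castaneus (edgeR adjusted p = 2.55e-05). Snhg1, 0.106 kb from Slc3a2, read 41.6% ± 4.57 from Castaneus and was called in the same direction as Slc3a2 (edgeR adjusted p = 0.0268). Atl3, 1167 kb from Slc3a2, was called in that direction too (42.5% from Castaneus, edgeR adjusted p = 0.00036). Around Slc38a2, Scaf11 (227 kb away, 53.4%, edgeR adjusted p = 0.0116) and Pced1b (547 kb away, 53.8%, edgeR adjusted p = 0.0457) were called the opposite way. Neighbours of uncalled transporters were called as well. Scaf11, higher from Castaneus, is also a neighbour of the uncalled Slc38a1, at 111 kb. Higher from C57BL/6 were Ubl3 (43.9% from Castaneus, 105 kb away) and Pan3 (46.1%, 779 kb) beside Slc7a1. So were Cep68 (41.2%, 52.8 kb) and Aftph (46.3%, 352 kb) beside Slc1a4. Beside Slc7a6, the transcription factor gene Nfatc3 read 8.38% ± 3.70 from Castaneus (edgeR adjusted p = 3.52e-06). No other annotated gene shared exon bases with a transporter. Gm20388, which overlaps Slc7a5 on the opposite strand, was listed at 0 RPKM.

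Outside the 9, plasma membrane amino acid transporters were mostly low. Of 22 others, 7 reached 1 RPKM, 2 reached 10 RPKM, 4 were listed at 0 (Slc7a9, Slc1a6, Slc38a4 and Slc6a14), and the median was 0.0857 RPKM. The 9 and the 22 were named with earlier results known, so the contrast is a description. Slc6a6, the taurine transporter, had the highest level of these, at 25.3 ± 3.44 RPKM, followed by the glycine transporter Slc6a9 at 15.4 ± 1.30 RPKM (SD, n = 4). The cystine-glutamate exchanger Slc7a11, another partner of Slc3a2, had 8.12, 13.5, 6.49 and 4.22 RPKM in replicates 1 to 4. Its order over the animals was that of the myeloid marker sums (61.3, 99.4, 46.0 and 37.1 RPKM, mostly Lyz2), whose part in it was not tested. The myeloid marker Cd68 had another order and was lowest in replicate 1. Slc43a2, the LAT4 gene, had 4.17 ± 1.09 RPKM, Slc7a3, a cationic transporter on the X chromosome, 2.77 ± 0.481 RPKM, Slc6a19 1.25 ± 0.454 RPKM and Slc16a10 1.03 ± 0.291 RPKM. Of 6 tested, 4 were higher from Castaneus by edgeR (12.4% of all autosomal genes tested were), too few genes to describe the group, with 54.5% for Slc7a11 (adjusted p = 0.00536), 63.1% for Slc43a2, 54.6% for Slc6a6 and 80.6% for Slc6a19. Slc16a10 was higher from C57BL/6 (15.6% of all were), with 22.5% from Castaneus.

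**Figure D4:**
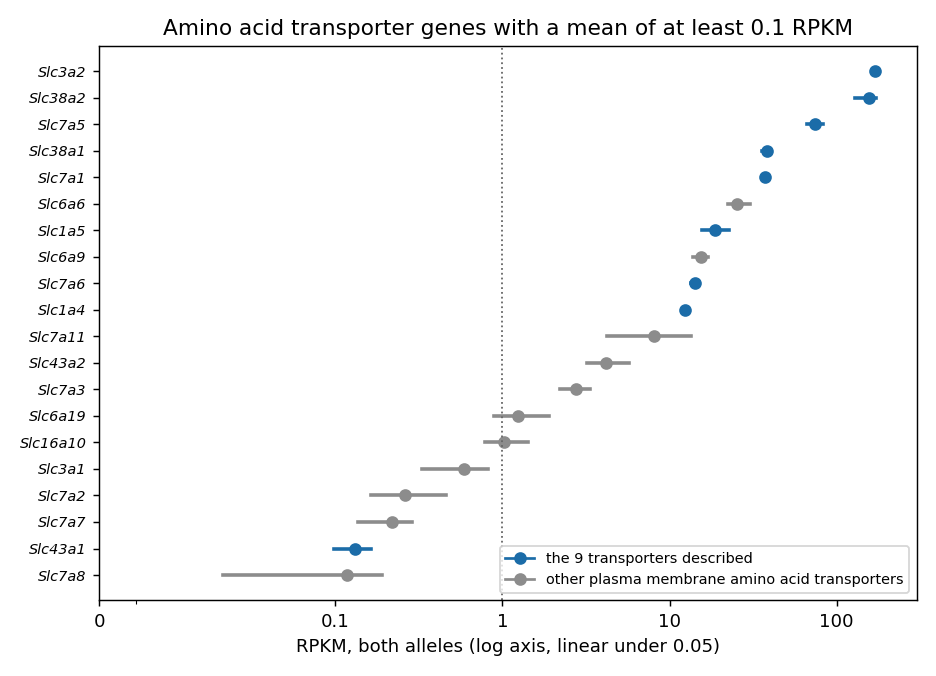
Mean RPKM (point) and range over 4 replicates (bar) of the 9 transporters in blue and of the other plasma membrane amino acid transporters in grey, for genes whose mean was 0.1 RPKM or higher. The 5 highest means belong to the 9, and Slc43a1 lies among the low genes.

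Genes that act beside the transporters were measured in the same libraries. Atf4, the transcription factor of the amino acid response, had 282.8 ± 12.01 RPKM and did not pass the allele test (48.4% from Castaneus, edgeR adjusted p = 0.296). Asns, asparagine synthetase and a known Atf4 target, had 37.5 ± 2.20 RPKM, of which 84.0% ± 2.15 was read from Castaneus (edgeR adjusted p = 6.69e-09). Trib3, a pseudokinase of the same response, had 78.0 ± 4.41 RPKM and read 55.1% from Castaneus. Myc, which is known to raise transporter genes in activated T cells, had 43.2 ± 3.44 RPKM and read 34.4% ± 1.90 from Castaneus (edgeR adjusted p = 1.29e-05). Ddit3, the CHOP gene, had 37.5 ± 4.74 RPKM. In this list of 8 genes, 3 were higher from Castaneus and 1 from C57BL/6, beside 12.4% and 15.6% of all autosomal genes tested, and 8 genes are too few to read a share from. Their median level was 37.5 RPKM.

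Genes of amino acid sensing by mTORC1 reached 1 RPKM in 24 of 24 cases, with a median of 8.60 RPKM. The folliculin gene Flcn (46.2 ± 5.05 RPKM) and the leucine sensor gene Sesn2 (37.1 ± 1.89 RPKM) had the highest levels, before the Rag GTPase gene Rragc (24.1 RPKM) and Sec13 (22.7 RPKM). By edgeR 2 of the 24 (8.33%) were higher from Castaneus, beside 12.4% of all autosomal genes tested. They were Sesn2 with 79.0% ± 1.09 (edgeR adjusted p = 1.94e-09) and Rragd with 58.4% ± 5.49. Flcn alone (4.17%, beside 15.6% of all) was higher from C57BL/6, with 46.7% ± 1.51 from Castaneus. Of 9 lysosomal transporters 8 reached 1 RPKM, led by Slc38a7 (11.7 ± 1.28 RPKM), the cystine carrier Ctns (6.07 RPKM), Slc15a4 (4.29 RPKM) and Slc36a1 (4.21 RPKM). Of 7 tested, Slc36a4 was higher from Castaneus (75.1%), and Slc38a7 (31.7% from Castaneus, edgeR adjusted p = 1.03e-05) and Slc29a3 (33.5%) were higher from C57BL/6. Over all autosomal genes tested the shares were 12.4% and 15.6%, and 7 genes are too few to read a share from.

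Enzymes that use amino acids passed 1 RPKM in 19 of 22 cases, and Arg1, an arginase, was listed at 0. Ornithine decarboxylase (Odc1), which feeds polyamine synthesis, had 135.5 ± 22.1 RPKM and read 24.7% ± 1.27 from Castaneus (edgeR adjusted p = 6.86e-08). The serine pathway genes Shmt2 and Phgdh had 70.3 ± 8.61 and 34.6 ± 6.53 RPKM, and glutamate dehydrogenase (Glud1) had 26.7 ± 1.91 RPKM. Of 19 tested by edgeR, 3 were higher from Castaneus (15.8%, beside 12.4% of all autosomal genes tested) and 5 from C57BL/6 (26.3%, beside 15.6%). The 3 were Mat2a, which makes S-adenosylmethionine (88.4% from Castaneus), Bckdhb (77.4%) and Psph (58.5%). The 5 were Odc1, Shmt2 (46.5%), Glud1 (40.7%), Got1 (43.4%) and Got2 (34.7%).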

How the data were processed

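Per the labels, RNA was read from 4 libraries of 1 group. The authors deposited whole-number read counts per gene and allele, and RPKM that combine the alleles. The submitters' processing notes name STAR 2.7.1a, featureCounts and mm10. The sources used here do not state the allele assignment, duplicate removal or the RPKM total. Gene positions came from GENCODE M21.

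Counts were tested with edgeR 4.0.16 (glmQLFit, glmQLFTest, R 4.3.3). Genes needed a mean of 20 allelic reads and 1 RPKM, and library sizes were the autosomal totals of each allele. The replicate was a block, because each animal gives a count for either allele. P-values were adjusted by Benjamini-Hochberg over all 10268 autosomal genes, at an FDR of 5%. RPKM were compared within animals on log2 ratios with exact sign-flip tests. Reads per molecule were estimated from autosomal genes with 20 to 39 reads, by the share read from 1 allele only. Those shares were 36.4%, 84.2%, 45.2% and 13.5% in replicates 1 to 4. This assumes that each clump is a molecule and that alleles are equally active. DESeq2 1.42.0, other filters, scalings and left-out replicates were alternatives. Scripts were tested on simulated data. Python 3.11.15 with scipy 1.17.1, pandas 2.3.3, numpy 2.4.6 and, for plots, matplotlib 3.10.9 did the rest.

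The members and gene lists were chosen with earlier results of these data known. Besides the 9, the text names from each list up to 4 genes with the highest level, up to 3 called with the most reads, other plasma membrane transporters with at least 1 RPKM, and the genes most like 4 members in level. The split of levels by allele, the neighbouring genes and the promoter motifs were added after seeing the data. Neighbours are named where called, besides BC048644 and those of Slc1a5, 1 of which is not reported here.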

Additional observations from a re-analysis of the deposited data

Results flagged for a closer look

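In 22 values with 4 replicates each, the highest or lowest replicate was compared with the others by Dixon's ratio of gap to range, whose 95% critical value chance passes in about 1 of 20 groups. The Castaneus share of Slc7a6 stood apart in replicate 1, at 40.7%, with 54.0%, 51.8% and 52.4% in the other replicates. The Castaneus share of Slc38a2 also stood apart in replicate 1, at 45.7%, with 48.4%, 48.2% and 48.6% in the others. The total Slc38a2 level was lowest in the same replicate, at 128.9 RPKM.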

How the results depend on the processing

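Slc7a5 and Slc1a5 kept their direction and call in 12 of 12 alternatives to the main edgeR test, which include DESeq2's Wald test. Their adjusted p by edgeR or DESeq2 was 1.83e-14 to 0.0254 and 2.34e-12 to 0.0222, with log2 ratios of 0.28 to 0.37 and -0.81 to -0.59. Slc3a2 was called in 11 of 12 (adjusted p = 2.75e-06 to 0.233) and Slc38a2 in 6 of 12 (adjusted p = 0.00631 to 0.549). For Slc7a5, Slc3a2 and Slc38a2 the lowest adjusted p came from DESeq2's Wald test and the highest from edgeR. Slc1a4, Slc38a1, Slc7a1 and Slc7a6 were called in 0 of 12. The number of transporters higher from C57BL/6 was 1 without the replicate block, and 2 to 3 when each replicate was left out. Among all autosomal genes, calls higher from Castaneus and from C57BL/6 numbered 962 and 1138 without the block, 1481 and 1352 with TMM scaling, and 1686 and 2203 with DESeq2's Wald test. Leaving out each replicate gave 913 to 1338 higher from Castaneus and 1041 to 1720 higher from C57BL/6, the fewest of the second kind without replicate 4. With reads divided by reads per molecule, the share differed between animals in 68 autosomal genes and 0 transporters. The summed level was 513.6 to 530.1 RPKM with each replicate left out, and 1532 when RPKM were rescaled to sum to 1000000, which by construction changes the unit. No called result for a transporter changed direction in the alternatives run, while the uncalled log2 ratios of Slc1a4 (-0.06 to 0.02), Slc7a1 (-0.02 to 0.07) and Slc7a6 (-0.08 to 0.18) lay on both sides of 0. Over all autosomal genes, C57BL/6 calls outnumbered Castaneus calls, and the reverse held with TMM scaling and with DESeq2 size factors (1445 and 1363). Depth limits Slc43a1, which had 6 allelic reads. The cause of the changes was not tested, except where the alternative itself changes the unit.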
